A study of Mus musculus with 13 samples.

Results

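The tumor necrosis factor (TNF) superfamily was represented by 42 of the 32285 genes in the count tables, 17 ligands, 24 receptors and the antisense transcript Tnfsf13os. Members were taken by symbol, as every gene named Tnfsf or Tnfrsf with a number together with Tnf, Lta, Ltb, Ltbr, Cd40, Cd40lg, Fas, Fasl, Cd27 and Cd70. Ligands of this family are made as trimeric proteins on the cell surface and can be shed in soluble form. Receptors with a death domain can start caspase signaling, and most others bind TRAF adaptors and turn on NF-kB. In the gut the family is known for TNF-driven inflammation, for co-stimulation of T cells and for the survival of B and plasma cells.

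RNA of single cells was counted in 10 colon tumors and 3 pieces of adjacent mucosa from 3 C57BL/6J mice. All 3 animals were ApcMin/+; p16cis/cis, which combines a germline Apc mutation with an engineered epimutation of p16, and all were on the supplemented diet (added folic acid, vitamin B12, choline and betaine), so neither genotype nor diet differed between groups. Mouse A (24 weeks) gave tumors 5 to 8 and mucosa 2, mouse B (23 weeks) gave tumors 9 and 10 and mucosa 3, and mouse C (20 weeks) gave tumors 1 to 4 and mucosa 1. The question was how the family differed between tumor and adjacent mucosa. Mucosa was dissociated with EDTA and TrypLE and tumors with an enzymatic tumor dissociation kit, so tissue and dissociation cannot be told apart. Tumors of 1 mouse share an animal, and p-values over tumors treat them as separate samples.

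After filters on depth, mitochondrial share and doublets, 106743 cells remained of 137591 barcodes. Libraries held 57221300 to 93157039 UMIs (unique molecular identifiers, each 1 captured RNA molecule) in tumors and 84883382 to 116133079 in mucosa. Cells were clustered and clusters named from marker genes as, for example, T cell-like; clusters without enough markers are called by their leading genes. Immune-like cells made up 79.4% of tumor cells and 29.9% of mucosa cells, and epithelial cells 20.1% and 67.4%. Neutrophil-like cells numbered 26603 in tumors and 0 of 21601 cells in mucosa, which allows a share of up to 0.0139% by counting error alone. Any 2 libraries shared 9 to 33 cell barcodes, at most 0.368% of the smaller one. Of the libraries, 7 were labelled female and 6 male, but Xist gave 2 to 10 UMIs and the Y-linked Ddx3y 2280 to 3985 in each library, so sex was not used.

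Summed over all cells, 24 of the 41 members tested were higher in tumors and 6 lower by edgeR's quasi-likelihood test at an adjusted p under 0.05, while 70.0% of all 17351 genes tested passed (36.3% higher, 33.7% lower). The members' median log2 fold change was 1.29, beside 0.04 over all genes. Libraries of the groups did not overlap for 25 members, beside 52.5% of all genes. By role, 18 of 24 receptors were higher and 2 lower, and 6 of 16 ligands were higher and 3 lower. Tnfsf18, the ligand of GITR, gave 37 UMIs over the tumors against 2 over the mucosa and was not tested. In such sums, more cells of a type and more RNA per cell cannot be told apart. All 6 broad immune markers were higher in these sums, and 5 of 7 epithelial markers were lower.

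Restricted to epithelial cells, 30 members passed the low-count filter and 12 did not (Tnfsf4, Tnfsf8, Tnfsf11, Tnfsf14, Tnfsf18, Fasl, Cd40lg, Cd70, Tnfrsf13b, Tnfrsf13c, Tnfrsf17 and Tnfrsf26). Of the 30, 15 were higher and 7 lower, while 64.7% of 15474 genes passed (34.0% higher, 30.7% lower), and 17 members did not overlap, beside 46.7% of genes. The median log2 fold change was 0.78 for the members and 0.04 over all genes. Of the members tested, 73.2% were called in all cells and 73.3% in epithelial cells. Fas passed in both sums with opposite signs. The epithelial sums of the groups came largely from different clusters. Tumor epithelial-like cells numbered 7599 in tumors and 6 in mucosa, and cells of the Krt36 and Pyy cluster 5966 and 22, while the cluster marked by Nr2e3 and Ces1d held 29 and 3059, that marked by Retnlb and Spdef 44 and 2225, and goblet-like cells 396 and 1572. In the epithelial sums goblet markers were lower for 6 of 7 (830.4 to 10110.0 CPM in tumors and 18790.0 to 39190.0 in mucosa), absorptive markers lower for 7 of 8 (168 to 1199 CPM in tumors and 1072 to 13070.0 in mucosa) and tumor epithelial markers higher for 8 of 8 (308 to 1509 CPM in tumors and 41.2 to 59.8 in mucosa). With goblet-like cells left out of the sums, 15 members were higher and 6 lower, with 5202 of 15449 genes higher and 4701 lower. The part of the other epithelial clusters in the folds was not tested. Values below are CPM, counts of UMIs scaled to a common library total, given for mucosa 1, 2 and 3 in that order, and log2 fold changes of tumor over mucosa carry their standard error. The folds are scaled for composition and the CPM are not. In epithelial cells the fold minus the log2 ratio of the mean CPM had a median of -0.306 over all genes, and in T cell-like cells of 0.18.

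**Figure D1:**
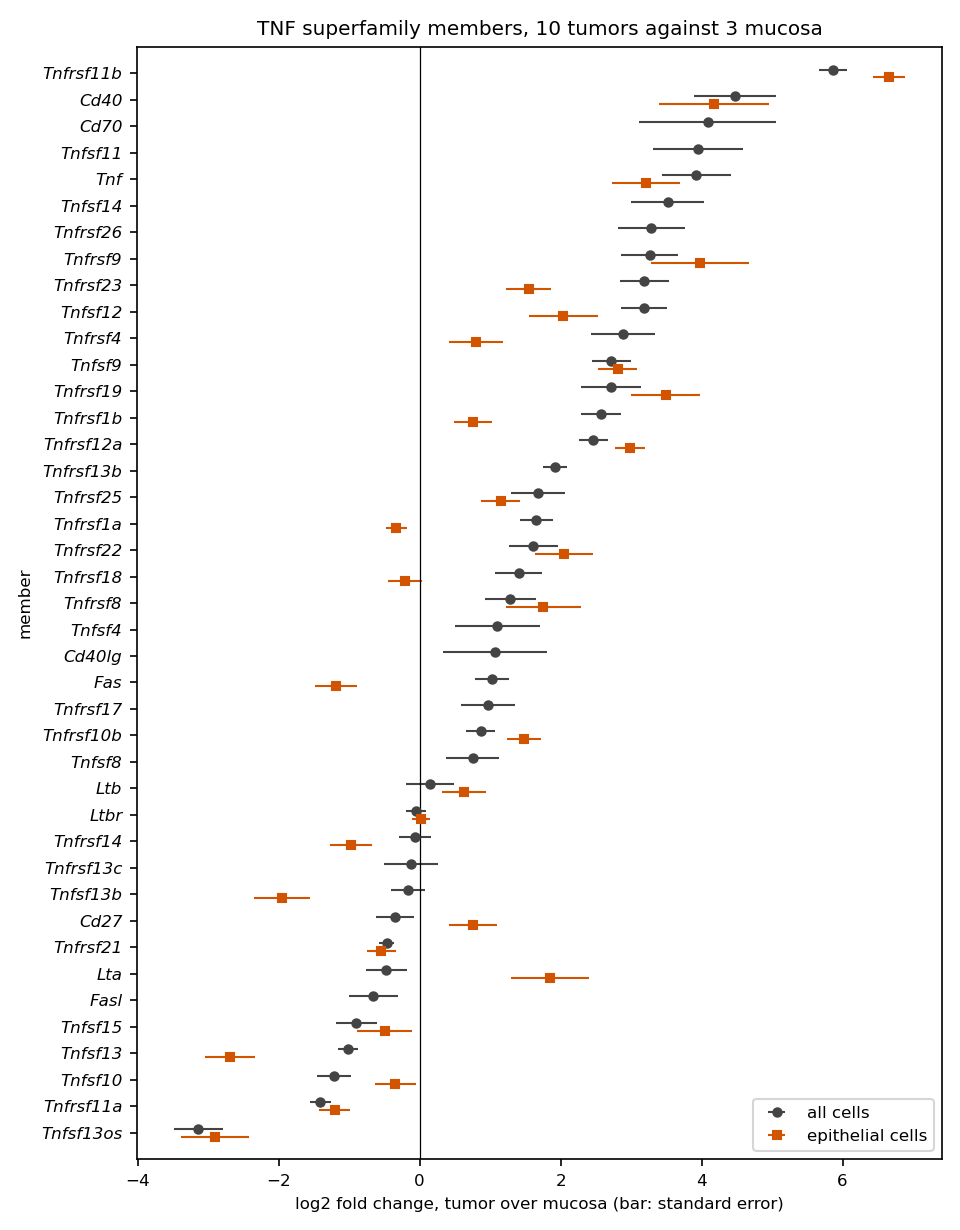
Log2 fold change of tumor over mucosa (x axis) with its standard error for each member tested (y axis), in all cells (circles, 41 members) and in epithelial cells (squares, 30 members). Tnfrsf11b lay farthest to the right and Tnfsf13os farthest to the left in both, and Fas lay on opposite sides of 0.

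Each of the 41 members with at least 100 tumor UMIs was then placed by the cell class with its highest level in tumors, as mean ± SD over 3 mice in CPM. Only classes with at least 20 cells in a library of each mouse were ranked. Smaller classes, such as enteroendocrine and tuft cells (19 in tumors), could not lead. T cell-like cells led for 10 members (Tnfsf8, Tnfsf11, Cd40lg, Lta, Ltb, Tnfrsf4, Tnfrsf8, Tnfrsf9, Tnfrsf18 and Tnfrsf25), neutrophil-like cells for 6 (Tnfsf14, Fas, Tnfrsf1a, Tnfrsf1b, Tnfrsf23 and Tnfrsf26) and NK-like cells for 4 (Tnfsf4, Fasl, Cd27 and Tnfrsf22). C1q+ macrophage-like cells led for Tnfsf12, Tnfsf13 and Tnfsf13b, and dendritic-like cells for Cd40, Cd70 and Tnfsf9. An epithelial cluster marked by Defb45 and Robo2 led for Tnfrsf11a, Tnfsf15 and Tnfsf13os, and one marked by Krt36 and Pyy for Tnfsf10, Tnfrsf10b and Tnfrsf11b. Tumor epithelial-like cells, named from Wnt target genes such as Axin2 and Notum, led for Tnfrsf12a and Tnfrsf19. Other classes led for 1 member each, B cell-like cells for Tnfrsf13c, plasma cell-like cells for Tnfrsf17, plasmacytoid dendritic-like cells for Tnfrsf13b, Spp1+ macrophage-like cells for Tnf, absorptive cells for Ltbr, goblet-like cells for Tnfrsf21 and an unnamed cluster marked by Hspa1a and Zeb2 for Tnfrsf14. The ligand and the receptor of 28 known pairs had the same leading class in 3 cases. These were Tnfsf8 with Tnfrsf8 in T cell-like cells, and Tnfsf10 with both Tnfrsf10b and Tnfrsf11b in the Krt36 and Pyy cluster. Among subclusters, CD8 alpha beta T cells had a higher mean of Tnfsf10 (88.3 ± 13.9) than that cluster (41.5 ± 9.03). Cells with regulatory T markers had a higher mean of Tnfrsf10b (10.7 ± 0.724, against 8.6 ± 1.74 in that cluster). Of the 28 pairs, 27 had both partners among the 41 members. The values of the 3 mice overlapped between the first and second class for 19 members and were apart for 22, and the leads of Tnfrsf22 and Tnfrsf14 rested on 6 and 8 UMIs in the leading class. The lead of NK-like cells for Tnfsf4 (32 UMIs) and Cd27 did not hold among subclusters, where Tnfsf4 was at 3.57 ± 3.09 in cells with NK markers and 10.1 ± 6.74 in mature dendritic cells, and Cd27 at 129 ± 30.1 and, in regulatory T cells, 153 ± 30.9, with overlap over the mice for both genes. Class levels are a description and were not tested.

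**Figure D2:**
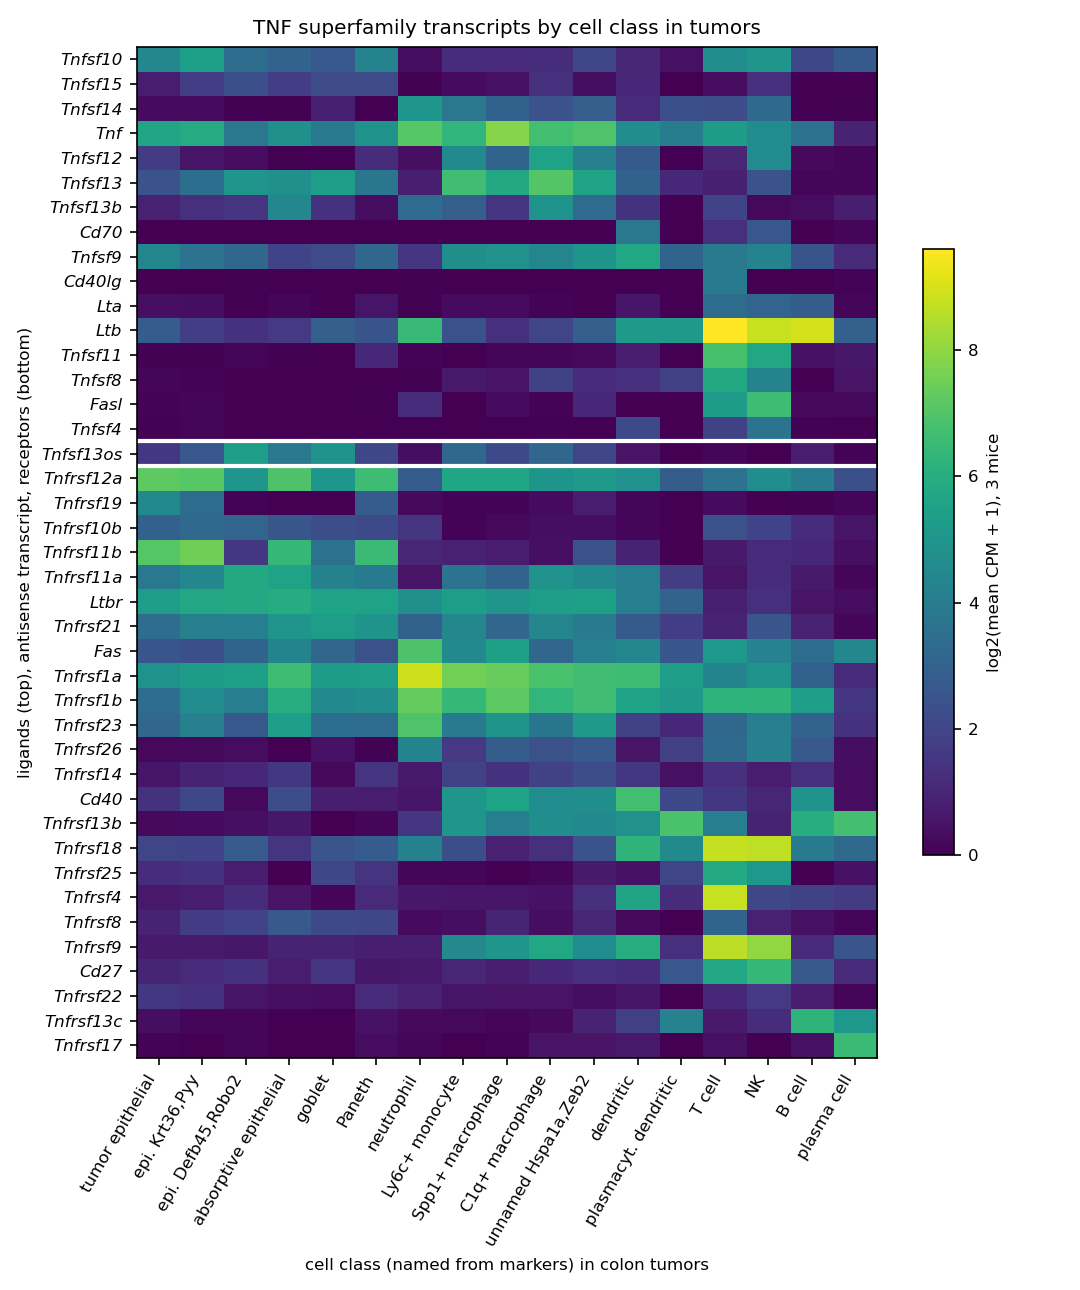
Level of each member with at least 100 tumor UMIs (rows; ligands, the antisense transcript and receptors) in the cell classes of the tumors (columns), as log2 of the mean CPM over 3 mice plus 1. Tnfrsf4, Tnfrsf9, Tnfrsf18 and Ltb were brightest in T cell-like cells, Tnfrsf1a in neutrophil-like cells, and Tnfrsf11b and Tnfrsf12a in tumor epithelial clusters.

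The RANK axis changed at each of its 3 members. Tnfrsf11b encodes osteoprotegerin, a secreted decoy receptor for RANKL (chr15:54250619-54278484, GRCm38, GENCODE vM21). In all cells it ran at 0.834, 0.785 and 1.05 CPM in mucosa and from 36.1 to 60.7 (median 52.5) in tumors, with a log2 fold change of 5.86 ± 0.20 and an adjusted p of 2.46e-10. Within epithelial cells it was at 0.952, 0.832 and 1.12 CPM in mucosa and from 79.3 to 162 (median 123) in tumors, with a log2 fold change of 6.66 ± 0.23 and an adjusted p of 1.82e-09. Each tumor lay above each mucosa in both. Tumor epithelial-like cells held 61.3% (range 25.1% to 76%) of its tumor UMIs and the Krt36 and Pyy cluster had the highest level, 184 ± 33.

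Tnfrsf11a, the receptor RANK, moved in the other direction. Over all cells it was at 38.5, 35.3 and 38.9 CPM in mucosa and from 11.2 to 19.3 (median 12.7) in tumors, with a log2 fold change of -1.41 ± 0.15 and an adjusted p of 2.47e-06. The epithelial values were 44.6, 37.2 and 42.5 CPM in mucosa and from 14.7 to 35 (median 21.7) in tumors, with a log2 fold change of -1.21 ± 0.22 and an adjusted p of 0.000295. Tumors lay below all mucosa in both sums. Its level in the Defb45 and Robo2 cluster was 55.8 ± 2.21 in tumors and 54.9 ± 6.1 in mucosa. Tnfsf11, which encodes RANKL, rose in all cells, at 0.849, 0.112 and 0.0973 CPM in mucosa and from 2.62 to 8.51 (median 5.33) in tumors, with a log2 fold change of 3.95 ± 0.64 and an adjusted p of 9.93e-05. No library overlapped, and without mucosa 1 the fold was 5.61. T cell-like cells held 93.8% (range 89.2% to 96.5%) of its tumor UMIs.

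Tnfsf10 (TRAIL), a ligand that can trigger cell death, fell in all cells, at 23.5, 24.3 and 36.4 CPM in mucosa and from 7.83 to 16.9 (median 12.1) in tumors, with a log2 fold change of -1.22 ± 0.24 and an adjusted p of 0.000498. Its epithelial values overlapped, at 16.9, 21.9 and 31.8 CPM in mucosa and from 13.1 to 35.2 (median 23.3) in tumors, with a log2 fold change of -0.34 ± 0.29 and an adjusted p of 0.306. The TRAIL death receptor Tnfrsf10b (DR5) was higher in both sums. In all cells it was at 1.97, 1.67 and 2.07 CPM in mucosa and from 2.29 to 5.05 (median 3.41) in tumors, with a log2 fold change of 0.87 ± 0.20 and an adjusted p of 0.00184. Among epithelial cells Tnfrsf10b was at 2.06, 1.69 and 2.21 CPM in mucosa and from 3.83 to 11.3 (median 6.46) in tumors, with a log2 fold change of 1.48 ± 0.24 and an adjusted p of 0.000134. All tumors exceeded all mucosa in both.

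The next receptors lie beside each other on chromosome 7, the TRAIL decoys Tnfrsf22 (chr7:143634806-143649661) and Tnfrsf23 (chr7:143665809-143685872) and their homolog Tnfrsf26 (chr7:143607659-143628722). Over all cells Tnfrsf22 was at 0.547, 0.224 and 0.219 CPM in mucosa and from 0.464 to 1.58 (median 1.05) in tumors, with a log2 fold change of 1.61 ± 0.35 and an adjusted p of 0.001. Tnfrsf23 was at 4.06, 2.12 and 1.76 CPM in mucosa and from 14.7 to 31.5 (median 26.6) in tumors, with a log2 fold change of 3.19 ± 0.34 and an adjusted p of 2.52e-06. Tnfrsf26 was at 0.662, 0.112 and 0.462 CPM in mucosa and from 2.19 to 6.23 (median 3.99) in tumors, with a log2 fold change of 3.28 ± 0.47 and an adjusted p of 3.4e-05. A single tumor overlapped mucosa for Tnfrsf22, and no library did for the other two. In epithelial cells Tnfrsf22 was at 0.535, 0.178 and 0.213 CPM in mucosa and from 0.756 to 2.5 (median 1.6) in tumors, with a log2 fold change of 2.05 ± 0.42 and an adjusted p of 0.000751. Epithelial Tnfrsf23 was at 4.55, 2.21 and 1.9 CPM in mucosa and from 6.46 to 14.8 (median 10.6) in tumors, with a log2 fold change of 1.55 ± 0.32 and an adjusted p of 0.000831. Neither overlapped, and without mucosa 1 the epithelial fold of Tnfrsf22 was 2.68. Neutrophil-like cells held 58.9% (range 45.8% to 67.6%) of the tumor UMIs of Tnfrsf23 and 57.8% (range 42.5% to 71.5%) of those of Tnfrsf26, while tumor epithelial-like cells held 48.1% (range 21.1% to 65.8%) of those of Tnfrsf22.

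Fn14 and TROY were the receptors led by tumor epithelial-like cells. Tnfrsf12a (Fn14), the receptor of TWEAK and known to be induced in injured tissue, was at 8.99, 15.3 and 10.8 CPM in mucosa and from 49.4 to 85.1 (median 61.6) in tumors, with a log2 fold change of 2.47 ± 0.20 and an adjusted p of 2.32e-07 in all cells. In the epithelium it was at 9.93, 15.9 and 11.6 CPM in mucosa and from 89.4 to 163 (median 121) in tumors, with a log2 fold change of 2.98 ± 0.21 and an adjusted p of 2.64e-07. No library overlapped, and its class level was 146 ± 21.2 in tumor epithelial-like and 138 ± 24.4 in Krt36 and Pyy cells. Tnfsf12 (TWEAK) was at 1.01, 0.645 and 0.73 CPM in mucosa and from 3.98 to 9.83 (median 7.38) in tumors, with a log2 fold change of 3.18 ± 0.33 and an adjusted p of 1.58e-06 over all cells. In epithelial cells Tnfsf12 was at 0.0668, 0.357 and 0.36 CPM in mucosa and from 0.40 to 1.88 (median 1.34) in tumors, with a log2 fold change of 2.04 ± 0.49 and an adjusted p of 0.00243. Tumors lay above mucosa in both sums. Its highest level was in C1q+ macrophage-like cells, 45.7 ± 3.36, which held 52.9% (range 35.9% to 59.9%) of its tumor UMIs.

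Tnfrsf19 (TROY), an orphan receptor known as a Wnt target in intestinal stem cells, was at 1.28, 0.757 and 1.03 CPM in mucosa and from 1.91 to 11.6 (median 6.68) in tumors, with a log2 fold change of 2.71 ± 0.43 and an adjusted p of 7.12e-05 in all cells. Its epithelial values were 1.45, 0.803 and 1.13 CPM in mucosa and from 4.18 to 32.9 (median 15.3) in tumors, with a log2 fold change of 3.49 ± 0.49 and an adjusted p of 4.31e-05. Groups did not overlap, and tumor epithelial-like cells held 82.2% (range 72% to 94.2%) of its tumor UMIs, at 23.2 ± 7.17. The 250 bases before each of its 2 RefSeq starts (GRCm38.p6, minus strand, chr14:61037988-61038237 and chr14:61046856-61047105) are shown because the first holds the Wnt effector (TCF) motif CTTTGAT on the opposite strand, in capitals, its first base 202 bases before the start. Read on both strands, this motif was present in 3.21% of 32851 mouse promoter windows of that length and in 2 of the 31 members with a RefSeq entry, Tnfrsf19 and Tnfrsf9. An NF-kB motif, GGG and TTTCC with 2 free bases between them, was present in Ltb, Tnfrsf25 and Tnfrsf9 and in 1.41% of windows, and the AP-1 motif TGACTCA in 6 members (Fas, Tnfrsf8, Tnfrsf9, Tnfsf13, Tnfsf13b and Tnfsf14) and in 4.46% of windows. Members are counted by gene, the 31 having 35 windows, and the percentages are by window. A match is a description of the letters, not a site. The bases past the start lay in a transcript of the gene for 30 of 35 member windows, but for neither Tnfrsf19 window. The first Tnfrsf19 start lies inside the vM21 gene (chr14:60963875-61046490) and the second upstream of it.
Tnfrsf19, first start: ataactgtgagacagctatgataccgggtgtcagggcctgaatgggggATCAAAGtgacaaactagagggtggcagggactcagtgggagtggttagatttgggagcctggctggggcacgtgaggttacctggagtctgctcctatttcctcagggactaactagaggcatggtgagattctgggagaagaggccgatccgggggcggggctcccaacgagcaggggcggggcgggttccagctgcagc
Tnfrsf19, second start: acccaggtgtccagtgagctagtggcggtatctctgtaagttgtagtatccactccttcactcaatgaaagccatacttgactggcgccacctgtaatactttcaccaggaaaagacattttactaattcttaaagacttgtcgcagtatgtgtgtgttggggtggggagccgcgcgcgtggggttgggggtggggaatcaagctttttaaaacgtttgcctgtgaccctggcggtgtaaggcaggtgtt

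**Figure D3:**
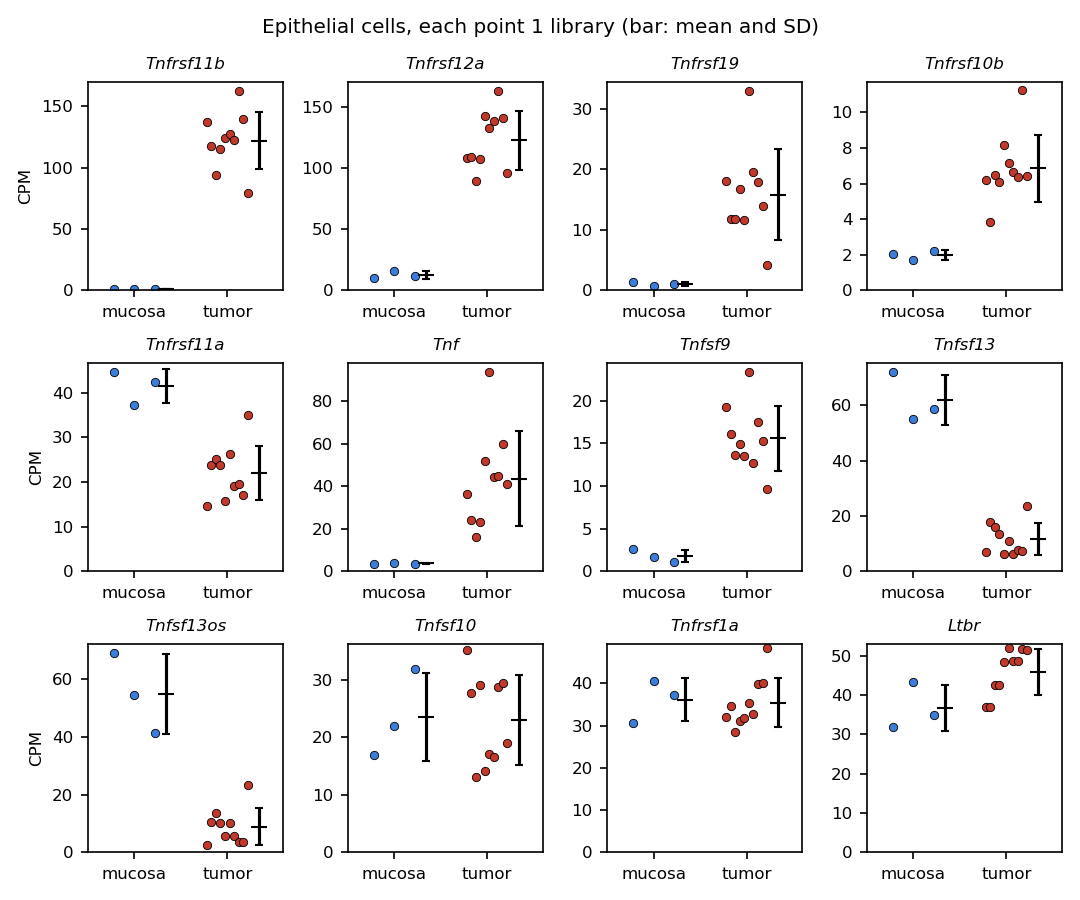
CPM in epithelial cells (y axis, linear and from 0) of 12 members, each point 1 library (3 mucosa, 10 tumors), with mean and SD as bars. Tnfrsf11b, Tnfrsf12a, Tnfrsf19, Tnfrsf10b, Tnf and Tnfsf9 lay higher in every tumor than in any mucosa, Tnfrsf11a, Tnfsf13 and Tnfsf13os lay lower, and Tnfsf10, Tnfrsf1a and Ltbr overlapped.

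Tnf, the founding inflammatory cytokine of the family, lies with Lta and Ltb on chromosome 17 (chr17:35199381-35202007). Over all cells Tnf was at 5.25, 4.4 and 4.21 CPM in mucosa and from 29.7 to 122 (median 77.8) in tumors, with a log2 fold change of 3.93 ± 0.49 and an adjusted p of 9.31e-06. In epithelial cells it was at 3.66, 4.01 and 3.65 CPM in mucosa and from 16.1 to 93.6 (median 42.8) in tumors, with a log2 fold change of 3.21 ± 0.48 and an adjusted p of 7.22e-05. Every tumor was above every mucosa. Its tumor UMIs were spread over classes, with 26.5% (range 11.5% to 37.2%) in Spp1+ macrophage-like cells, whose level of 229.7 ± 130.5 overlapped over mice with that of neutrophil-like cells, 138 ± 46.6.

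Its receptor Tnfrsf1a (TNFR1), which carries a death domain, was at 29.4, 39.6 and 36.1 CPM in mucosa and from 77.3 to 167 (median 106) in tumors, with a log2 fold change of 1.66 ± 0.23 and an adjusted p of 2.59e-05 in all cells. No library overlapped there. In epithelial cells Tnfrsf1a was at 30.5, 40.6 and 37.3 CPM in mucosa and from 28.4 to 48.4 (median 33.7) in tumors, with a log2 fold change of -0.33 ± 0.15 and an adjusted p of 0.0634, which did not pass. With mouse as a block the adjusted p was 0.0373, and without mucosa 1 or tumor 10 it was 0.0358 and 0.00668. Neutrophil-like cells held 49.3% (range 38.8% to 57.4%) of its tumor UMIs, at 469.8 ± 48. Tnfrsf1b (TNFR2), the receptor found mainly on immune cells, was at 11.2, 6.85 and 10.1 CPM in mucosa and from 39.5 to 80.4 (median 52.1) in tumors, with a log2 fold change of 2.57 ± 0.28 and an adjusted p of 2.84e-06 over all cells. Its epithelial values were 8.92, 6.2 and 7.87 CPM in mucosa and from 8.49 to 26.3 (median 15.3) in tumors, with a log2 fold change of 0.75 ± 0.27 and an adjusted p of 0.0252, with 1 tumor inside the mucosa range. That epithelial call was lost without mucosa 2 (adjusted p = 0.109) or mucosa 3 (0.0634).

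Of the lymphotoxin axis, which organizes lymphoid tissue, Ltb was at 92.9, 28 and 48.3 CPM in mucosa and from 33.6 to 101 (median 55.1) in tumors, with a log2 fold change of 0.15 ± 0.34 and an adjusted p of 0.711 and Ltbr, its receptor, at 27.7, 41.1 and 32.1 CPM in mucosa and from 24.5 to 39.2 (median 33.1) in tumors, with a log2 fold change of -0.051 ± 0.14 and an adjusted p of 0.762 in all cells. Lta was at 1.64, 0.757 and 0.766 CPM in mucosa and from 0.513 to 1.21 (median 0.72) in tumors, with a log2 fold change of -0.47 ± 0.29 and an adjusted p of 0.162. The groups overlapped for the 3 genes and none passed. In epithelial cells Lta rested on 83 tumor and 13 mucosa UMIs and was at 0.0668, 0.104 and 0.0266 CPM in mucosa and from 0.0445 to 0.56 (median 0.329) in tumors, with a log2 fold change of 1.85 ± 0.55 and an adjusted p of 0.00938, a call lost without mucosa 3 (adjusted p = 0.0578). Epithelial Ltb was at 2.59, 2.04 and 2.2 CPM in mucosa and from 2.22 to 8.73 (median 4.14) in tumors, with a log2 fold change of 0.63 ± 0.31 and an adjusted p of 0.0948, and passed without tumor 10 (adjusted p = 0.0448). Ltbr in the epithelium was at 32, 43.2 and 34.9 CPM in mucosa and from 36.9 to 52.1 (median 48.5) in tumors, with a log2 fold change of 0.018 ± 0.12 and an adjusted p of 0.905. T cell-like cells held 57.3% (range 44.2% to 71%) of the tumor UMIs of Ltb, and Ltbr was highest in absorptive epithelial-like cells at 60.1 ± 12.6.

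Tnfsf14 (LIGHT), which binds Ltbr and the receptor HVEM, was at 0.762, 0.336 and 0.474 CPM in mucosa and from 2.84 to 10.4 (median 6.27) in tumors, with a log2 fold change of 3.52 ± 0.52 and an adjusted p of 4.01e-05 in all cells, without overlap, and neutrophil-like cells held 62.7% (range 52.1% to 73.7%) of its tumor UMIs. Tnfrsf14 (HVEM) was at 0.719, 1.5 and 1.19 CPM in mucosa and from 0.807 to 1.28 (median 1.12) in tumors, with a log2 fold change of -0.061 ± 0.23 and an adjusted p of 0.824. In epithelial cells Tnfrsf14 was lower, at 0.668, 1.46 and 1.17 CPM in mucosa and from 0.288 to 0.934 (median 0.679) in tumors, with a log2 fold change of -0.97 ± 0.29 and an adjusted p of 0.0101, and 7 tumors lay within the mucosa range. Its adjusted p was 0.0943 without mucosa 2 and 0.0669 with the tumors of a mouse summed. Tnfsf15 (TL1A), a ligand linked to mucosal inflammation, was at 2.92, 1.7 and 1.2 CPM in mucosa and from 0.508 to 1.47 (median 1.06) in tumors, with a log2 fold change of -0.90 ± 0.29 and an adjusted p of 0.0129 over all cells, and without mucosa 1 its fold was -0.52 (adjusted p = 0.161). With the tumors of a mouse summed its adjusted p was 0.0705. Epithelial Tnfsf15 was at 3.38, 1.8 and 1.32 CPM in mucosa and from 0.831 to 3.6 (median 1.86) in tumors, with a log2 fold change of -0.50 ± 0.39 and an adjusted p of 0.273. Its receptor Tnfrsf25 (DR3) was at 1.78, 0.435 and 0.851 CPM in mucosa and from 2.08 to 5.08 (median 3.21) in tumors, with a log2 fold change of 1.68 ± 0.39 and an adjusted p of 0.00149 in all cells, without overlap, and at a fold of 2.30 without mucosa 1. In the epithelium Tnfrsf25 was at 0.602, 0.268 and 0.493 CPM in mucosa and from 1.0 to 1.76 (median 1.12) in tumors, with a log2 fold change of 1.15 ± 0.28 and an adjusted p of 0.00246, again without overlap.

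APRIL and its antisense transcript fell in the epithelial sums, in which goblet and absorptive markers were lower too. Tnfsf13 (APRIL, chr11:69682846-69685784), a survival factor of plasma cells, was at 62.7, 52.3 and 53.9 CPM in mucosa and from 21.6 to 35.7 (median 27.2) in tumors, with a log2 fold change of -1.01 ± 0.14 and an adjusted p of 2.8e-05 in all cells. In epithelial cells it was at 72.1, 55 and 58.6 CPM in mucosa and from 6.17 to 23.5 (median 9.46) in tumors, with a log2 fold change of -2.69 ± 0.36 and an adjusted p of 2.95e-05. Tnfsf13os (chr11:69682138-69691141) runs on the opposite strand over 2939 bases of Tnfsf13 and 4892 bases of Tnfsf12. Over all cells Tnfsf13os was at 59.7, 51.8 and 37.9 CPM in mucosa and from 2.74 to 11.8 (median 5.14) in tumors, with a log2 fold change of -3.14 ± 0.35 and an adjusted p of 3.7e-06. In the epithelium it was at 68.9, 54.6 and 41.2 CPM in mucosa and from 2.69 to 23.4 (median 7.84) in tumors, with a log2 fold change of -2.90 ± 0.48 and an adjusted p of 0.000171. All tumors lay below all mucosa for both genes in both sums. Without goblet-like cells the epithelial folds were -2.69 for Tnfsf13 and -2.98 for Tnfsf13os (adjusted p = 3.63e-05 and 0.000157). The Retnlb and Spdef cluster, with the goblet marker Muc2 among its leading genes, stayed in these sums. It held the largest share of the mucosa UMIs of Tnfsf13 (27.9%) and Tnfsf13os (27.2%), and its part in the folds was not tested. In mucosa the highest mean level of Tnfsf13 was in goblet-like cells, 95.4 ± 15, and in tumors it was in C1q+ macrophage-like cells, 131 ± 6.89, which held 38.1% (range 19.4% to 54.5%) of its tumor UMIs. The kit marks strand, but how reads shared by the overlapping genes were counted is not given in the sources used here.

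Tnfsf13b (BAFF), the B cell survival factor, was at 4.49, 6.6 and 6.94 CPM in mucosa and from 2.86 to 7.37 (median 5.47) in tumors, with a log2 fold change of -0.17 ± 0.24 and an adjusted p of 0.547 in all cells, with overlap. In epithelial cells it fell, at 4.46, 6.75 and 7.13 CPM in mucosa and from 1.04 to 4.81 (median 1.45) in tumors, with a log2 fold change of -1.96 ± 0.40 and an adjusted p of 0.000785, where 9 of 10 tumors were below all mucosa. Its shared receptor Tnfrsf13b (TACI) was at 5.7, 3.85 and 5.14 CPM in mucosa and from 14.4 to 22.6 (median 18.4) in tumors, with a log2 fold change of 1.92 ± 0.17 and an adjusted p of 3.79e-07 over all cells, without overlap. Tnfrsf17 (BCMA), the plasma cell receptor, was at 6.13, 2.71 and 4.8 CPM in mucosa and from 3.29 to 17 (median 8.07) in tumors, with a log2 fold change of 0.97 ± 0.39 and an adjusted p of 0.0372. This call was lost with mouse as a block (adjusted p = 0.0693), with the tumors of a mouse summed (0.0587), without the low-count filter (0.0539) and without mucosa 2 (0.168), mucosa 3 (0.0788), tumor 6 (0.0555) or tumor 7 (0.053). Plasma cell-like cells held 97.9% (lowest library 96.6%) of its tumor UMIs. Tnfrsf13c (BAFF receptor) was at 7.78, 3.95 and 4.26 CPM in mucosa and from 2.48 to 9.88 (median 4.33) in tumors, with a log2 fold change of -0.13 ± 0.38 and an adjusted p of 0.777.

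Fas, the receptor of Fas ligand that can trigger apoptosis, was higher in all cells and lower in epithelial cells. In all cells it was at 9.65, 15.2 and 14.5 CPM in mucosa and from 15.7 to 35.7 (median 27.1) in tumors, with a log2 fold change of 1.02 ± 0.24 and an adjusted p of 0.0019, without overlap. Its epithelial values were 6.17, 13.9 and 11.9 CPM in mucosa and from 3.57 to 11 (median 4.99) in tumors, with a log2 fold change of -1.19 ± 0.30 and an adjusted p of 0.00356, with 8 of 10 tumors below all mucosa. Neutrophil-like cells, of which mucosa gave none, held 52.2% (range 46.6% to 55.4%) of its tumor UMIs, at 119 ± 3.89. Fasl, its ligand, known from cytotoxic lymphocytes, was at 5.61, 2.27 and 3.31 CPM in mucosa and from 0.823 to 3.63 (median 2.23) in tumors, with a log2 fold change of -0.65 ± 0.35 and an adjusted p of 0.113 and highest in NK-like cells at 96.2 ± 7.51. T cell-like cells held 74.1% of its tumor UMIs. Among subclusters, cells with NK markers were at 114 ± 20 and CD8 alpha beta T cells at 101 ± 28, with overlap over the mice. Tnfrsf21 (DR6), a death domain receptor, was at 16.3, 14.9 and 14.4 CPM in mucosa and from 9.17 to 13.3 (median 10.7) in tumors, with a log2 fold change of -0.47 ± 0.11 and an adjusted p of 0.00177 in all cells, without overlap. In the epithelium it was at 18.6, 15.7 and 15.6 CPM in mucosa and from 9.1 to 18.7 (median 13.9) in tumors, with a log2 fold change of -0.54 ± 0.20 and an adjusted p of 0.0298, a call lost without mucosa 1, 2 or 3 (adjusted p = 0.117, 0.0618 and 0.0585) or without goblet-like cells (0.0931, at a fold of -0.42).

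Tnfrsf4, Tnfrsf9, Tnfrsf18 and Tnfrsf8 are receptors found on activated T cells. Tnfrsf4 (OX40) was at 4.98, 1.15 and 3.02 CPM in mucosa and from 11.3 to 31.5 (median 22.3) in tumors, with a log2 fold change of 2.88 ± 0.46 and an adjusted p of 8.2e-05. Tnfrsf9 (CD137) was at 5.49, 1.36 and 2.41 CPM in mucosa and from 16.9 to 40.2 (median 27.5) in tumors, with a log2 fold change of 3.26 ± 0.41 and an adjusted p of 8.99e-06. Neither overlapped, and without mucosa 1 the fold of Tnfrsf9 was 3.93. Tnfrsf18 (GITR) was at 16.6, 6.88 and 9.84 CPM in mucosa and from 14.6 to 39.3 (median 30.6) in tumors, with a log2 fold change of 1.41 ± 0.33 and an adjusted p of 0.00191, with 1 tumor inside the mucosa range. Tnfrsf8 (CD30) was at 0.345, 0.505 and 0.547 CPM in mucosa and from 0.677 to 2.41 (median 1.05) in tumors, with a log2 fold change of 1.29 ± 0.36 and an adjusted p of 0.00542, without overlap. Cd27, a receptor of naive and memory lymphocytes, was at 6.72, 2.64 and 4.77 CPM in mucosa and from 2.45 to 6.41 (median 3.58) in tumors, with a log2 fold change of -0.35 ± 0.27 and an adjusted p of 0.252, with overlap. T cell-like cells held 87.3% (range 80.5% to 94.7%) of the tumor UMIs of Tnfrsf4, 57.7% (range 47.7% to 66.7%) of Tnfrsf9, 65.5% (range 58.1% to 73.1%) of Tnfrsf18 and 27.8% (range 16.7% to 44.6%) of Tnfrsf8.

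Tnfsf9, Cd70 and Cd40 were highest in dendritic-like cells. Tnfsf9 (CD137 ligand) was at 3.77, 2.02 and 1.46 CPM in mucosa and from 11.7 to 18.6 (median 15.7) in tumors, with a log2 fold change of 2.72 ± 0.28 and an adjusted p of 1.44e-06 in all cells. Cd70, the ligand of Cd27, was at 0.0863, 0.014 and 0.0122 CPM in mucosa and from 0.0484 to 1.35 (median 0.733) in tumors, with a log2 fold change of 4.08 ± 0.97 and an adjusted p of 0.00189. Tnfsf9 did not overlap, and 1 tumor did for Cd70, which had 8 mucosa UMIs. Cd40, through which T cells license antigen-presenting cells, was at 1.4, 0.224 and 0.316 CPM in mucosa and from 5.6 to 21.8 (median 13.2) in tumors, with a log2 fold change of 4.47 ± 0.58 and an adjusted p of 1.28e-05, without overlap. Without mucosa 1 the folds of Cd40 and Cd70 were 5.65 and 5.41. Dendritic-like cells held 83% (range 0% to 93.9%) of the tumor UMIs of Cd70. Within them, cells with mature dendritic markers were at 35.2 ± 19.1 for Cd70 and 214 ± 60.6 for Cd40.

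Tnfsf4 (OX40 ligand) had 202 tumor and 33 mucosa UMIs and was at 0.288, 0.042 and 0.122 CPM in mucosa and from 0.0646 to 0.545 (median 0.331) in tumors, with a log2 fold change of 1.10 ± 0.60 and an adjusted p of 0.115. Cd40lg was at 0.82, 0.0841 and 0.146 CPM in mucosa and from 0.21 to 1.62 (median 0.512) in tumors, with a log2 fold change of 1.07 ± 0.74 and an adjusted p of 0.21. Tnfsf8 (CD30 ligand) was at 3.14, 0.841 and 1.35 CPM in mucosa and from 2.03 to 4.78 (median 2.81) in tumors, with a log2 fold change of 0.75 ± 0.38 and an adjusted p of 0.0877. None passed, and all 3 did so without mucosa 1, which held the highest mucosa value of each, with folds of 1.90, 2.58 and 1.40 (adjusted p = 0.0336, 0.0178 and 0.00649). Tnfsf4 also passed without tumor 3 (0.0479), and Tnfsf8 passed with mouse as a block (adjusted p = 0.0294), by DESeq2 (0.0439) and with under 10% mitochondrial UMIs (0.0358). With doublets kept, both passed (0.0378 and 0.0396).

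The epithelial sums also held UMIs of members whose highest class level in tumors was in immune cells. Cd40 was at 0.0501, 0.0743 and 0.107 CPM in mucosa and from 0.534 to 4.78 (median 1.38) in tumors, with a log2 fold change of 4.17 ± 0.78 and an adjusted p of 0.000397. Tnfrsf9 was at 0.0167, 0.0149 and 0.0533 CPM in mucosa and from 0.179 to 1.17 (median 0.599) in tumors, with a log2 fold change of 3.98 ± 0.69 and an adjusted p of 0.000241. Tnfrsf8 was at 0.301, 0.312 and 0.466 CPM in mucosa and from 0.467 to 3.6 (median 1.43) in tumors, with a log2 fold change of 1.76 ± 0.53 and an adjusted p of 0.00973. None of these overlapped, and Tnfrsf9 rested on 172 tumor and 6 mucosa UMIs, with a fold of 4.76 without mucosa 3. Tnfsf9 in epithelial cells was at 2.57, 1.68 and 1.13 CPM in mucosa and from 9.61 to 23.4 (median 15.1) in tumors, with a log2 fold change of 2.81 ± 0.28 and an adjusted p of 2.81e-06, without overlap. Epithelial cells held 57.2% of the tumor UMIs of Tnfrsf8 and 42.8% of those of Tnfsf9, but 5.68% of those of Cd40. Tnfrsf4 was at 0.334, 0.253 and 0.413 CPM in mucosa and from 0.359 to 1.45 (median 0.648) in tumors, with a log2 fold change of 0.80 ± 0.38 and an adjusted p of 0.0817, and without tumor 7 its adjusted p was 0.0467. Cd27 was at 0.618, 0.58 and 0.48 CPM in mucosa and from 0.625 to 2.08 (median 1.02) in tumors, with a log2 fold change of 0.76 ± 0.34 and an adjusted p of 0.0662, and without tumor 6 or tumor 8 it passed (0.0451 and 0.0341), as it did with the tumors of a mouse summed (0.0283), by DESeq2 (0.0426) and with under 10% mitochondrial UMIs (0.0168). Tnfrsf18 was at 3.71, 2.93 and 2.64 CPM in mucosa and from 2.41 to 5.52 (median 3.05) in tumors, with a log2 fold change of -0.21 ± 0.24 and an adjusted p of 0.461, a fold below 0 beside mean CPM of 3.29 in tumors and 3.09 in mucosa.

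RNA of immune cells can reach epithelial droplets, so a carry-over level was estimated for each member. For each immune class, the ratio of its summed markers in epithelial cells to that in the class itself was multiplied by the member's level in the class, and the products were added. Taking for each class the marker with the lowest such ratio in place of the sum, an alternative chosen after the data were seen, gave a lower estimate. Of the 15 members higher in epithelial cells, 12 exceeded the summed-marker estimate on average in tumors and all 15 exceeded the lowest-marker estimate. The summed-marker estimate came to 0.0727% of the measured mean for Tnfrsf11b, 0.0743% for Tnfrsf19, 0.512% for Tnfrsf10b, 4.72% for Tnfrsf12a, 5.92% for Tnfrsf8, 23.3% for Tnfsf9, 31.1% for Tnf and 77.5% for Tnfrsf1b. It exceeded the measured mean for Cd40 (288%), Tnfrsf9 (792%) and Tnfsf12 (218%), while their measured means of 1.81, 0.633 and 1.36 CPM lay above the lowest-marker estimates of 0.209, 0.386 and 0.0806. The lowest-marker estimate was also exceeded by Fasl (0.0782 against 0.0274 CPM) and Tnfrsf17 (0.07066 against 0.07053). Immune cells held 98.25% and 99.13% of their tumor UMIs. Exceeding this estimate therefore does not tell epithelial RNA from carry-over. The source of Cd40, Tnfrsf9 and Tnfsf12 in the epithelial sums was not tested. Among members not called higher, the summed-marker estimate came to 66.5% of the measured mean for Tnfrsf1a, 69.2% for Fas and 81.1% for Tnfrsf18. In the same tumor sums it came to 102% for Ltb, 106% for Tnfsf13 and 262% for Tnfrsf4. The summed markers of Ly6c+ monocyte-like cells stood at 4.15% to 25.6% of their class level in tumor epithelial sums, the highest ratio of the classes, and they were also counted in mucosa epithelial sums (848 to 2180.0 CPM, against 378 to 1743 in tumors). These monocyte markers summed to 5790 to 6858 CPM in mucosa absorptive epithelial-like cells, while mucosa held 21 Ly6c+ monocyte-like cells. Marker RNA made by epithelial cells would raise the summed-marker estimate, and its part in the percentages above was not tested. In the epithelial sums 4 of 6 broad immune markers were higher in tumors (sum 21.1 to 58.0 against 7.58 to 10.4 CPM in mucosa) and so were all 7 neutrophil markers (159 to 873 against 6.65 to 20.6).

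In T cell-like cells, 26 members were tested, 15 higher and 7 lower, while 41.1% of 10509 genes passed (20.4% higher, 20.7% lower). Members did not overlap in 15 cases, beside 29.8% of genes. OX40, CD137, GITR, DR3 and RANKL were higher in tumors, and TRAIL, TWEAK, LIGHT and Fas ligand were lower. The cells compared were not of 1 kind. Most tumor T cell-like cells (5990) came from 1 cluster that held 594 mucosa cells, and most mucosa T cell-like cells (3989) from another that held 461 tumor cells. The latter carried markers of intraepithelial gamma delta T cells, at a median of 1867 UMIs per cell, against 3300.5 in the former. Each fold below is therefore followed by the fold within the former cluster alone, a comparison chosen after the data were seen, in which 6 of 25 members tested were higher and 4 lower, while 8.63% of 9653 genes were higher and 6.36% lower. This cluster was not split by kind of T cell. Over all T cell-like and NK-like cells, those with regulatory T markers numbered 755 in tumors and 15 in mucosa and, among the subclusters with a name, had the highest means of Tnfrsf4, Tnfrsf9 and Tnfrsf18, and their part in the folds was not tested.

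Tnfrsf4 in T cell-like cells was at 55.3, 32 and 56 CPM in mucosa and from 369 to 539 (median 402) in tumors, with a log2 fold change of 3.34 ± 0.20 and an adjusted p of 9.22e-11, and within the cluster the fold was 0.77 (adjusted p = 0.00552). Tnfrsf9 was at 53.4, 45.7 and 50.1 CPM in mucosa and from 294 to 525 (median 347) in tumors, with a log2 fold change of 3.13 ± 0.20 and an adjusted p of 1.67e-10, with 3.17 (adjusted p = 1.3e-07) within the cluster. The co-stimulator Tnfrsf18 was at 132, 124 and 149 CPM in mucosa and from 388 to 471 (median 434) in tumors, with a log2 fold change of 1.84 ± 0.13 and an adjusted p of 1.18e-09, with 0.86 (adjusted p = 0.000365). All 3 receptors kept the tumors apart from mucosa, and the 3 folds passed within the cluster too. Tnfrsf25 was at 13.4, 6.09 and 8.91 CPM in mucosa and from 42.3 to 66.8 (median 58) in tumors, with a log2 fold change of 2.62 ± 0.23 and an adjusted p of 1.44e-08, with 0.43 (adjusted p = 0.177). Tnfrsf8 was at 0.732, 4.06 and 2.51 CPM in mucosa and from 4.54 to 13.9 (median 6.83) in tumors, with a log2 fold change of 1.96 ± 0.39 and an adjusted p of 0.000418, with 2.41 (adjusted p = 0.0493). Neither overlapped, and Tnfrsf25 did not pass within the cluster.

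Tnfsf11 in T cell-like cells was at 9.88, 3.05 and 1.95 CPM in mucosa and from 90.2 to 127 (median 114) in tumors, with a log2 fold change of 4.43 ± 0.32 and an adjusted p of 9.08e-09, with 2.09 (adjusted p = 1.81e-06) within the cluster. Tnfrsf23 was at 1.1, 0 and 0.278 CPM in mucosa and from 5.53 to 13.8 (median 7.2) in tumors, with a log2 fold change of 3.77 ± 0.45 and an adjusted p of 1.19e-06, with 3.00 (adjusted p = 0.0035). Tnfsf8 was at 37, 28.9 and 30.1 CPM in mucosa and from 37 to 69.4 (median 57.3) in tumors, with a log2 fold change of 0.90 ± 0.19 and an adjusted p of 0.000911, and within the cluster its fold turned to -0.77 (adjusted p = 0.00386). The ranges stayed apart for all 3 genes, narrowly for Tnfsf8, and without mucosa 1 the folds over all T cell-like cells were 5.76 for Tnfsf11 and 5.39 for Tnfrsf23. Tnf was at 21.8, 17.8 and 15 CPM in mucosa and from 25.3 to 44.5 (median 40.1) in tumors, with a log2 fold change of 1.23 ± 0.20 and an adjusted p of 3.89e-05, with 0.39 (adjusted p = 0.207). Tnfrsf1b was at 37.9, 32.5 and 59.6 CPM in mucosa and from 45.8 to 103 (median 68.5) in tumors, with a log2 fold change of 0.87 ± 0.22 and an adjusted p of 0.00357, with 0.73 (adjusted p = 0.131). Tnfrsf12a was at 2.2, 7.11 and 2.78 CPM in mucosa and from 5.46 to 14.5 (median 10.9) in tumors, with a log2 fold change of 1.75 ± 0.32 and an adjusted p of 0.000196, with 1.24 (adjusted p = 0.109). Tnf did not overlap, and none of these 3 passed within the cluster.

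Another 4 members rose with overlap between groups. Tnfrsf13b in T cell-like cells was at 7.5, 3.05 and 5.57 CPM in mucosa and from 7.3 to 41.6 (median 13.4) in tumors, with a log2 fold change of 1.53 ± 0.40 and an adjusted p of 0.00619, with -0.11 (adjusted p = 0.914) within the cluster. Tnfrsf10b was at 2.2, 2.03 and 0.835 CPM in mucosa and from 1.41 to 5.71 (median 4.52) in tumors, with a log2 fold change of 1.40 ± 0.40 and an adjusted p of 0.00817, with 0.72 (adjusted p = 0.503), and it did not pass without mucosa 3 (0.0743). Tnfrsf26 was at 6.22, 3.05 and 7.24 CPM in mucosa and from 5.81 to 14.5 (median 7.66) in tumors, with a log2 fold change of 0.73 ± 0.28 and an adjusted p of 0.0404, with 0.30 (adjusted p = 0.704). Its adjusted p was 0.0538 to 0.178 without mucosa 1, 2 or 3 or tumor 4, 5 or 9. Tnfsf9 was at 11.2, 9.14 and 7.52 CPM in mucosa and from 7.0 to 20.0 (median 13.5) in tumors, with a log2 fold change of 0.68 ± 0.26 and an adjusted p of 0.0398, with 0.45 (adjusted p = 0.559). Its adjusted p was 0.0508 to 0.207 without mucosa 2 or 3 or tumor 1, 3, 7 or 9. All 7 neutrophil markers were also higher in the tumor T cell-like sums (129 to 875 against 5.49 to 7.62 CPM). Plasma cell markers were higher for 5 of 7 tested and lower for 0 (311 to 2889 against 91.5 to 209 CPM). Spp1+ macrophage markers were higher for 4 of 5 tested and lower for 0 (53.6 to 192 against 24.5 to 45.8 CPM). The part of these marker lists in the result was not tested.

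Members lower in T cell-like cells included death ligands. Tnfsf10 was at 96.1, 118 and 158 CPM in mucosa and from 14.9 to 33.5 (median 27.9) in tumors, with a log2 fold change of -2.04 ± 0.17 and an adjusted p of 1.08e-08, with -1.04 (adjusted p = 0.0388) within the cluster. Fasl was at 63.3, 75.7 and 69.3 CPM in mucosa and from 26.1 to 46.8 (median 38.5) in tumors, with a log2 fold change of -0.68 ± 0.13 and an adjusted p of 0.000385, with 0.33 (adjusted p = 0.513). Tnfsf14 was at 8.97, 10.7 and 8.63 CPM in mucosa and from 1.3 to 5.77 (median 4.16) in tumors, with a log2 fold change of -1.16 ± 0.31 and an adjusted p of 0.0052, with -1.59 (adjusted p = 0.0255). All tumors lay below all mucosa. Tnfsf12 was at 5.86, 7.62 and 5.57 CPM in mucosa and from 0 to 3.15 (median 0.628) in tumors, with a log2 fold change of -2.20 ± 0.50 and an adjusted p of 0.0015, and could not be tested within the cluster. Tnfsf13b was at 7.14, 7.11 and 7.52 CPM in mucosa and from 0 to 5.65 (median 2.86) in tumors, with a log2 fold change of -1.05 ± 0.36 and an adjusted p of 0.0244, with -0.76 (adjusted p = 0.521), and was not called without mucosa 1 (0.0867) or mucosa 3 (0.0708). Tnfrsf1a was at 31.5, 44.7 and 40.1 CPM in mucosa and from 11.8 to 23.1 (median 19.4) in tumors, with a log2 fold change of -0.84 ± 0.15 and an adjusted p of 0.000122, with -0.0011 (adjusted p = 0.999).

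Cd27 in T cell-like cells was at 72.8, 70.1 and 91.3 CPM in mucosa and from 33.7 to 80.0 (median 47) in tumors, with a log2 fold change of -0.47 ± 0.17 and an adjusted p of 0.0379, with -0.80 (adjusted p = 0.0247) within the cluster, and its call was lost without mucosa 1 or 3 or tumor 1, 2, 5, 6, 8 or 9 (adjusted p 0.0548 to 0.184) and by DESeq2 (0.0534). Cd40lg was at 10.4, 3.05 and 3.34 CPM in mucosa and from 6.11 to 30.7 (median 13.2) in tumors, with a log2 fold change of 1.44 ± 0.59 and an adjusted p of 0.0683, and passed with mouse as a block (adjusted p = 0.0032), by DESeq2 (0.00687) and without mucosa 1 (0.0249) or tumor 6 (0.049). Within the cluster the fold of Cd40lg was -0.78 (adjusted p = 0.44). Ltb was at 711, 672 and 823 CPM in mucosa and from 643 to 858 (median 799) in tumors, with a log2 fold change of 0.27 ± 0.13 and an adjusted p of 0.114, with -0.035 (adjusted p = 0.914), and passed by DESeq2 (0.0203). Lta was at 9.15, 10.2 and 5.29 CPM in mucosa and from 3.57 to 13.1 (median 9.33) in tumors, with a log2 fold change of 0.39 ± 0.31 and an adjusted p of 0.335, with -0.90 (adjusted p = 0.0953). The groups overlapped for these 3 genes and for Cd27. Fas was at 39.3, 38.6 and 54.9 CPM in mucosa and from 25.4 to 40.4 (median 32.2) in tumors, with a log2 fold change of -0.23 ± 0.16 and an adjusted p of 0.256, with 0.14 (adjusted p = 0.784). Epithelial markers were lower in the tumor sums for 7 of 7 (62.0 to 209 against 279.8 to 2711 CPM) and NK markers for 6 of 6 tested (542 to 3017 against 6823 to 11590.0). Innate lymphoid markers were higher for 8 of 8 tested (1370.0 to 2658 CPM in tumors and 320.3 to 338 in mucosa). Their part in the members' differences was not tested.

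**Figure D4:**
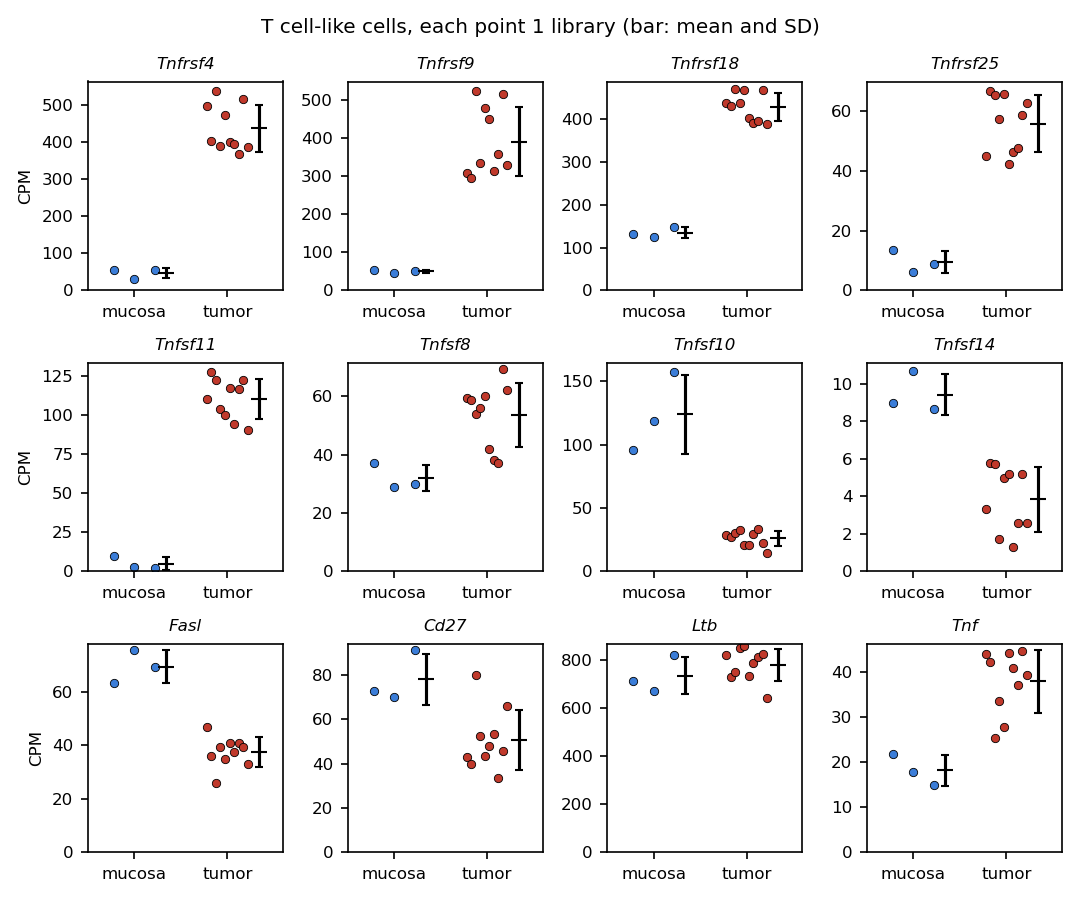
CPM in T cell-like cells (y axis, linear and from 0) of 12 members, each point 1 library (3 mucosa, 10 tumors), with mean and SD as bars. Tnfrsf4, Tnfrsf9, Tnfrsf18, Tnfrsf25, Tnfsf11, Tnfsf8 and Tnf lay higher in every tumor than in any mucosa, Tnfsf10, Tnfsf14 and Fasl lay lower, and Cd27 and Ltb overlapped.

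Subclusters of the tumor T cell-like and NK-like cells differed in these receptors. Cells with regulatory T markers (755 in tumors, 15 in mucosa) were at 2200.0 ± 327 for Tnfrsf4, 1731 ± 116 for Tnfrsf9 and 1416 ± 106 for Tnfrsf18. Conventional CD4 cells (2287 in tumors) were at 312 ± 38.2 for Tnfrsf4, 131 ± 18.4 for Tnfrsf9 and 419 ± 48.5 for Tnfrsf18. Cells with Il17 markers were at 925 ± 294 for Tnfrsf9. Among the subclusters with a name, regulatory cells had the highest mean for all 3 receptors, and the unnamed subclusters were not ranked. For Tnfsf11, Il17 cells were at 134 ± 25.4 and conventional CD4 cells at 106 ± 33.4, with overlap over the mice. Tnfsf8 was at 107 ± 6.09 in conventional CD4 cells and 25 ± 9.14 in regulatory cells. Tnfrsf8 was at 37.5 ± 6.16 in regulatory cells. These are levels as mean ± SD over 3 mice, without a test.

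**Figure D5:**
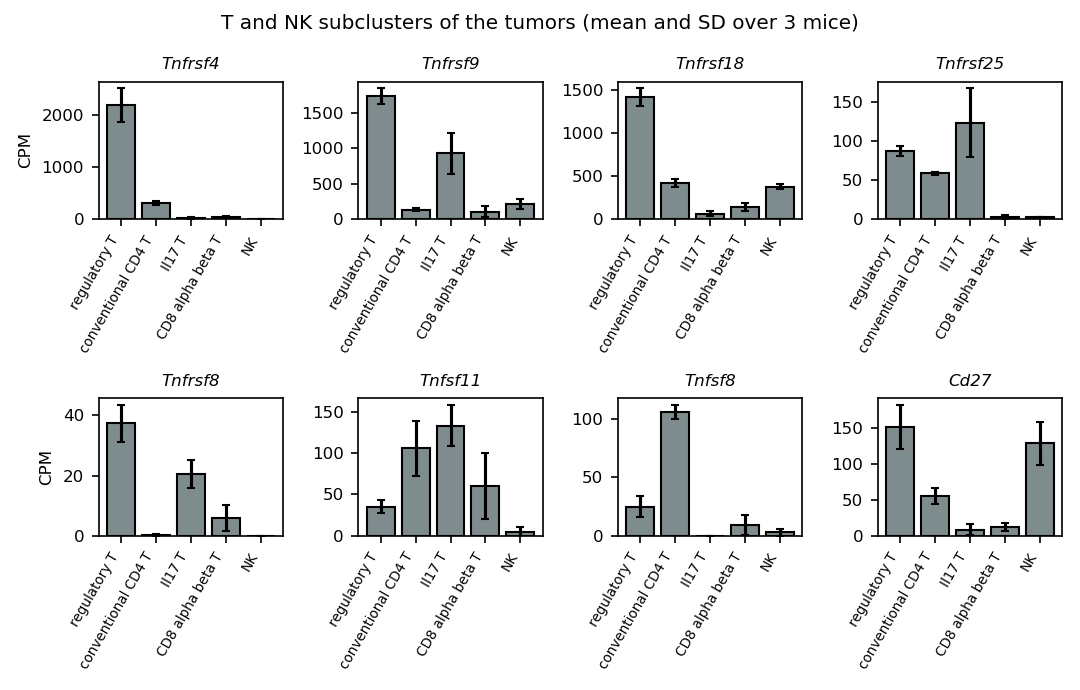
CPM (y axis, from 0; bars show the mean and error bars the SD over 3 mice) of 8 members in 5 subclusters of tumor T cell-like and NK-like cells. Cells with regulatory T markers had the tallest bars for Tnfrsf4, Tnfrsf9, Tnfrsf18 and Tnfrsf8, and conventional CD4 cells for Tnfsf8.

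B cell-like cells allowed 9 members to be tested, 2 higher and 6 lower, while 38.9% of 5781 genes passed (17.6% higher, 21.3% lower). Libraries did not overlap for 6 members, beside 17.9% of genes. Tnfrsf13c, the BAFF receptor that keeps mature B cells alive, was at 278, 331 and 270.0 CPM in mucosa and from 44 to 97.7 (median 79.9) in tumors, with a log2 fold change of -1.90 ± 0.17 and an adjusted p of 5.97e-10. Tnfrsf13b was at 142, 193 and 177 CPM in mucosa and from 33.3 to 109.9 (median 60.6) in tumors, with a log2 fold change of -1.49 ± 0.20 and an adjusted p of 1.94e-06. Lta was at 26.2, 38.6 and 44.6 CPM in mucosa and from 2.5 to 12.6 (median 4.71) in tumors, with a log2 fold change of -2.81 ± 0.31 and an adjusted p of 5.61e-08. Tumors lay below mucosa for all 3. Fas was at 26.2, 62.5 and 64.2 CPM in mucosa and from 3.89 to 14 (median 11.7) in tumors, with a log2 fold change of -2.71 ± 0.33 and an adjusted p of 2.7e-07. Ltb was at 1160.2, 819 and 835 CPM in mucosa and from 333 to 691 (median 522) in tumors, with a log2 fold change of -0.87 ± 0.18 and an adjusted p of 0.00036. Tnfrsf18 was at 26.9, 38.6 and 27.5 CPM in mucosa and from 6.28 to 28.1 (median 12.9) in tumors, with a log2 fold change of -1.10 ± 0.29 and an adjusted p of 0.00386, with 1 tumor inside the mucosa range. Fas and Ltb did not overlap.

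The B cell-like members that rose were Tnfrsf12a, at 4.48, 3.68 and 0 CPM in mucosa and from 5.58 to 25.2 (median 13.8) in tumors, with a log2 fold change of 2.47 ± 0.51 and an adjusted p of 0.000313 (fold 3.41 without mucosa 1), and Tnfrsf1b, at 5.76, 5.52 and 14.4 CPM in mucosa and from 13.9 to 62.8 (median 35.5) in tumors, with a log2 fold change of 2.14 ± 0.35 and an adjusted p of 2.29e-05. Tnfrsf12a did not overlap, and 9 of 10 tumors were above all mucosa for Tnfrsf1b. Cd40 was at 49.2, 9.2 and 18.3 CPM in mucosa and from 15.3 to 41.8 (median 29.7) in tumors, with a log2 fold change of 0.065 ± 0.30 and an adjusted p of 0.888, and passed without mucosa 1 (fold 1.11, adjusted p = 0.0126). Neutrophil markers summed to 223 to 6253 CPM in the tumor B cell-like cells and 0 to 9.17 in mucosa, and epithelial markers to 69.7 to 338 and 293 to 1604. Broad immune markers were lower for 3 of 6 and higher for 0 (2908 to 6440 CPM in tumors and 7072 to 8904 in mucosa). Plasma cell markers were lower for 2 of 5 tested and higher for 0 (499 to 1663 and 962 to 3099). B cell markers were higher for 2 of 8 and lower for 1. Their part in these differences was not tested.

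In plasma cell-like cells 3 of 13 members passed, 1 higher and 2 lower, while 22.4% of 9272 genes did (10.7% higher, 11.7% lower). Tnfrsf17 was at 446, 176 and 245 CPM in mucosa and from 65.4 to 147 (median 89.4) in tumors, with a log2 fold change of -0.95 ± 0.27 and an adjusted p of 0.0233. Tnfrsf13c was at 67.9, 88.4 and 76.1 CPM in mucosa and from 24.4 to 43.8 (median 32) in tumors, with a log2 fold change of -0.67 ± 0.17 and an adjusted p of 0.00719. No library overlapped. Tnfrsf17 was not called without mucosa 1 (0.193) or 3 (0.076) or without the low-count filter (0.0837), nor was Tnfrsf13c without mucosa 2 (0.0651) or 3 (0.0609). Tnfrsf18 was at 7.43, 7.95 and 8.53 CPM in mucosa and from 7.05 to 12.9 (median 8.45) in tumors, with a log2 fold change of 0.76 ± 0.26 and an adjusted p of 0.0403, and lost its call without mucosa 1, 2 or 3 or tumor 1, 3, 4 or 6 (0.05 to 0.161) and by DESeq2 (0.0866). B cell markers were lower in these sums for 3 of 5 tested (809 to 1073 CPM in tumors and 1386 to 1441 in mucosa) and neutrophil markers higher for 4 of 4 (52.9 to 492.8 CPM in tumors and 0 to 2.98 in mucosa), and their part was not tested. Ltb was at 58.4, 21.9 and 7.22 CPM in mucosa and from 2.2 to 15.7 (median 6.64) in tumors, with a log2 fold change of -1.23 ± 0.58 and an adjusted p of 0.157, and passed with mouse as a block (adjusted p = 0.0023), while without mucosa 1 its fold was -0.35 (adjusted p = 0.79).

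Scaling moved the folds most in this class, by a median of 0.594 from the log2 ratio of the mean CPM. The fold of Tnfrsf18, the 1 member called higher, carries this scaling, while its CPM overlapped between the groups. Plasma cell markers, immunoglobulin genes among them, summed to 119600.0 to 151800.0 CPM in tumors and 63640.0 to 105000.0 in mucosa. Tnfrsf13b was at 124, 156 and 168 CPM in mucosa and from 92.6 to 118 (median 105) in tumors, with a log2 fold change of 0.043 ± 0.15 and an adjusted p of 0.875. Fas was at 35, 38.7 and 34.8 CPM in mucosa and from 13.7 to 29.7 (median 18.2) in tumors, with a log2 fold change of -0.30 ± 0.21 and an adjusted p of 0.328. For both genes all tumors lay below all mucosa in CPM, and neither passed. Libraries did not overlap for 4 of the 13 members, beside 28.3% of genes. Tnfrsf9 was at 2.12, 3.97 and 0.656 CPM in mucosa and from 2.08 to 9.9 (median 4.5) in tumors, with a log2 fold change of 1.77 ± 0.64 and an adjusted p of 0.0537, and passed without tumor 2, 5 or 7 (0.0263, 0.0278 and 0.0353) and by DESeq2 (0.0338), while without mucosa 2 its fold was 2.50 (0.0639). Tnfsf9 was at 10.6, 4.97 and 0.656 CPM in mucosa and from 0.492 to 2.07 (median 1.13) in tumors, with a log2 fold change of -1.24 ± 0.52 and an adjusted p of 0.0945, and passed without mucosa 3 (0.0132), while without mucosa 1 its fold was -0.36 (0.759).

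Absorptive epithelial-like cells were compared in the 8 tumors with at least 20 such cells, and numbered 693 over all 10 tumors. Of 14 members tested, 5 were higher and 3 lower, while 23.4% of 7772 genes passed (11.3% higher, 12.1% lower), and 7 members did not overlap, beside 17.3% of genes. Tnfrsf23 was at 2.14, 0.943 and 0.74 CPM in mucosa and from 14.4 to 114 (median 23.3) in tumors, with a log2 fold change of 4.76 ± 0.75 and an adjusted p of 0.000657. Tnfrsf11b was at 11.3, 2.1 and 4.11 CPM in mucosa and from 13.9 to 213 (median 54) in tumors, with a log2 fold change of 3.72 ± 0.87 and an adjusted p of 0.00799, and Tnfrsf12a at 11.6, 15.7 and 12.1 CPM in mucosa and from 20.8 to 238 (median 126) in tumors, with a log2 fold change of 3.00 ± 0.73 and an adjusted p of 0.00996. All 8 tumors were above mucosa. The fold of Tnfrsf11b was 4.43 without mucosa 1, and its call was lost without mucosa 2 (0.0512) or 3 (0.0568) and that of Tnfrsf12a without mucosa 3 (0.0598). Tnfrsf1b was at 11.9, 3.7 and 5.84 CPM in mucosa and from 17.7 to 162 (median 42) in tumors, with a log2 fold change of 2.98 ± 0.66 and an adjusted p of 0.00585. Ltbr was at 27, 35.6 and 32.6 CPM in mucosa and from 39.4 to 81.1 (median 55.5) in tumors, with a log2 fold change of 0.77 ± 0.23 and an adjusted p of 0.025, a call lost without mucosa 1, 2 or 3 (0.101, 0.0528 and 0.0931) or without the low-count filter (0.0545).

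Of the members lower there, Fas was at 35.5, 41.8 and 43.1 CPM in mucosa and from 12.5 to 29.8 (median 18.8) in tumors, with a log2 fold change of -1.11 ± 0.20 and an adjusted p of 0.00141. Tnfsf10 was at 19.6, 21 and 25.7 CPM in mucosa and from 0 to 19.2 (median 5.8) in tumors, with a log2 fold change of -1.54 ± 0.45 and an adjusted p of 0.0237, and Tnfsf13 at 45.3, 51.6 and 57 CPM in mucosa and from 5.07 to 49.4 (median 28) in tumors, with a log2 fold change of -0.89 ± 0.29 and an adjusted p of 0.0376. Fas and Tnfsf10 did not overlap, and Tnfsf13 did in 1 tumor. Tnfsf10 was not called without mucosa 2 (0.0768), mucosa 3 (0.121) or tumor 10 (0.0543), and Tnfsf13 without mucosa 2 or 3 or tumor 5, 7, 8 or 10 (0.0527 to 0.168). Tnfrsf1a was at 58.2, 51.6 and 52.4 CPM in mucosa and from 57.5 to 137 (median 99.97) in tumors, with a log2 fold change of 0.72 ± 0.29 and an adjusted p of 0.0868, and passed without tumor 3 (0.0475) or tumor 4 (0.0417). Most absorptive cells of mucosa (2260) and of tumors (688) came from different clusters. Neutrophil markers summed to 143 to 2972 CPM in the tumor cells and 52.4 to 118 in mucosa.

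Goblet-like cells could be compared in 7 tumors, with 396 tumor cells over all tumors, and 1 of 9 members passed, while 3.37% of 6947 genes did (2.4% higher, 0.964% lower). Libraries did not overlap for 1 member, Tnfsf13, beside 8.41% of genes. Tnf was at 1.63, 3.36 and 1.4 CPM in mucosa and from 1.03 to 26.9 (median 13.2) in tumors, with a log2 fold change of 2.43 ± 0.61 and an adjusted p of 0.0359. It lay above mucosa in 6 of 7 tumors, and lost its call without mucosa 1, 2 or 3 or tumor 2, 5, 6 or 10 (adjusted p 0.0611 to 0.234). Neutrophil markers were higher for 4 of 4 tested in the goblet-like sums (69.7 to 1599 CPM in tumors and 0.204 to 2.1 in mucosa), and their part was not tested. Tnfsf13 was at 111, 80.6 and 95.2 CPM in mucosa and from 19.7 to 79.5 (median 43.7) in tumors, with a log2 fold change of -0.80 ± 0.28 and an adjusted p of 0.125, below mucosa in 7 of 7 tumors, and it passed with mouse as a block (adjusted p = 0.0129) and without the low-count filter (0.0348). C1q+ macrophage-like cells were not compared between tissues, since mucosa held 6 of them.

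The genes that carry signals from these receptors were followed as 50 genes in 6 lists, of which 48 were tested. In all cells 31 were higher and 5 lower, and in epithelial cells 20 were higher and 9 lower, again beside 70.0% and 64.7% of all genes called. By direction, 36.3% of all genes were higher and 33.7% lower in all cells, and 34.0% and 30.7% in epithelial cells. The carry-over estimate covered members only, while broad immune and neutrophil markers were higher in the tumor epithelial sums. Of the 9 lower epithelial genes, 3 (Traf5, Tradd and Fadd) passed with the tumors of a mouse summed and without any 1 library, and 6 (Casp8, Cyld, Mlkl, Otulin, Rbck1 and Sharpin) did not pass with the tumors summed (adjusted p = 0.147, 0.0503, 0.0953, 0.0729, 0.0725 and 0.196). Without mucosa 2 or without mucosa 3, 5 genes were lower. NF-kB kinases and subunits were higher for 8 of 10 in all cells and 6 of 10 in epithelial cells. Rel, an NF-kB subunit of lymphoid and myeloid cells, was at 16.9, 10.8 and 11 CPM in mucosa and from 82.5 to 209.8 (median 110.2) in tumors (log2 fold change 3.20 ± 0.32, adjusted p = 1.4e-06), with an epithelial fold of 1.64 ± 0.25 (adjusted p = 8.94e-05). Nfkb2 and Nfkb1, which give the precursor subunits, had folds of 1.82 ± 0.20 and 1.66 ± 0.16 (adjusted p = 3.25e-06 and 1.02e-06). In the epithelium Nfkb2 had 1.01 ± 0.16 (9.37e-05) and Rela 0.97 ± 0.12 (1.73e-05). Tumors did not overlap mucosa for any of these.

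Feedback inhibitors, several of them induced by NF-kB itself, were higher for 8 of 10 in all cells, beside 36.3% of all genes. In epithelial cells 3 were higher and 2 lower, beside 34.0% and 30.7% of all genes. Tnfaip3 (A20), which takes ubiquitin chains off the receptor complex, was at 12.4, 6.95 and 9.8 CPM in mucosa and from 48.5 to 122 (median 75.1) in tumors in all cells (log2 fold change 3.06 ± 0.35, adjusted p = 4.02e-06). Nfkbie had folds of 3.18 ± 0.28 (adjusted p = 4.48e-07) in all cells and 1.74 ± 0.39 (0.00165) in epithelial cells. Nfkbia had 2.28 ± 0.37 (8.68e-05) in all cells. Epithelial Tnfaip3 had 1.23 ± 0.39 (0.0138, and 0.0614 without mucosa 2) and Tnip2 0.87 ± 0.13 (8.19e-05). No library overlapped for these genes in these sums.

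Adaptors and ubiquitin ligases were mixed, with 5 of 12 higher and 2 lower in all cells, beside 36.3% and 33.7% of all genes. In epithelial cells 2 were higher and 4 lower, beside 34.0% and 30.7% of all genes. Traf1, itself induced by NF-kB, was at 14.6, 4.47 and 7.4 CPM in mucosa and from 35.5 to 95.7 (median 62.3) in tumors in all cells (log2 fold change 2.88 ± 0.39, adjusted p = 1.81e-05). Traf3, a brake on the alternative NF-kB route, had 1.30 ± 0.11 (3.37e-07) in all cells and 1.10 ± 0.14 (1.61e-05) in epithelial cells. Tradd, the adaptor of TNFR1, was lower, with -1.23 ± 0.21 (0.000136) and -1.03 ± 0.27 (0.00401). Traf5 in the epithelium had -1.59 ± 0.28 (0.000232). Among 8 death signaling genes, 3 were higher and 3 lower in all cells and 1 higher and 3 lower in epithelial cells. Cflar, an inhibitor of the initiator caspase, had 1.12 ± 0.19 (0.000146) in all cells, while Fadd, the adaptor that recruits this caspase, had -1.02 ± 0.13 (1.01e-05) and -0.65 ± 0.11 (0.000235). Mlkl, the necroptosis effector, had -0.79 ± 0.21 (0.00354) and -0.53 ± 0.21 (0.0394), where the latter call was lost with mouse as a block (0.0588), with the tumors of a mouse summed (0.0953) and without mucosa 2 (0.252) or mucosa 3 (0.124), and Bid had 0.51 ± 0.12 (0.00269) in the epithelium.

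The sheddase list joined Adam17 and Adam10, which release ligands and receptors from the surface, with Furin, Rhbdf2 and Rhbdf1, which are not sheddases. Of its 5 genes, 4 were higher in all cells and 5 in epithelial cells, beside 36.3% and 34.0% of all genes. Adam17, which sheds TNF, was at 13.6, 11.5 and 12.2 CPM in mucosa and from 25.4 to 39.3 (median 31.6) in tumors in all cells (log2 fold change 1.39 ± 0.13, adjusted p = 8.22e-07). Rhbdf2, its trafficking partner, had 2.01 ± 0.23 (4.04e-06) and 0.90 ± 0.20 (0.00149), Furin 1.97 ± 0.21 (2.25e-06) and 1.43 ± 0.22 (9.01e-05), and Adam10 0.76 ± 0.11 (4.51e-05) in the epithelium. Superfamily receptors that the symbol rule does not take were higher for all 3 tested. For Ngfr the tumors gave 320 UMIs in all and mucosa 2, that is 0.0288, 0 and 0 CPM in mucosa and from 0.151 to 1.42 (median 0.402) in tumors. Relt had 3.1 ± 0.28 (4.9e-07) and 2.80 ± 0.41 (6.77e-05) and Eda2r, a p53 target, 2.50 ± 0.59 (0.00181) and 3.21 ± 0.62 (0.000535).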

How the data were processed

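Droplet single-cell RNA sequencing (10x 3′) was used on 10 colon tumors and 3 mucosa pieces. Per the labels, the authors aligned and counted reads with Cell Ranger 6.0.0 against mm10, and the deposited values are raw UMI counts per gene and barcode, without normalization. Barcodes with at least 500 UMIs, 200 genes and under 25% mitochondrial UMIs were kept, and likely doublets were scored and taken out at a rate of 0.8% for each 1000 barcodes. Cells were clustered (2000 variable genes, 30 components, 20 neighbors, Leiden resolution 1, leidenalg 0.10.2, scikit-learn 1.9.0, Python 3.11.15) and named from fixed markers. Some names, such as stromal and enteroendocrine and tuft, were set by hand from a cluster's leading gene in place of the marker name. Raw counts were summed per library over all cells, epithelial cells and classes with at least 20 cells in a library, filtered with filterByExpr, scaled by TMM and tested without a mouse term in edgeR 4.0.16 (quasi-likelihood, R 4.3.3), with Benjamini-Hochberg adjustment over all genes tested. Members called, those with the 8 largest absolute folds in each direction and their ligand or receptor partners were named per comparison, up to 30, and of pathway genes the 3 with the largest absolute change per list among those called. Levels by class are CPM, as mean ± SD over 3 mice. Alternatives in all comparisons were DESeq2, no low-count filter, mouse as a block and each library left out. The tumors of a mouse summed to 1 sample, other scaling and stricter cell filters were run only in all cells and epithelial cells, doublets kept only in all cells, and goblet-like cells left out only in epithelial cells. The code was tested on simulated counts. Members, gene lists and tests were chosen with earlier results of these data known. Tumors and mucosa of 1 mouse come from the same animal, so a fit with mouse as a replicate block was also run, and deviations of the mouse's tumors and its own mucosa correlated across genes at r of 0.0978, 0.0842 and 0.0908 in all cells and 0.215, 0.121 and 0.27 in epithelial cells for mice A, B and C. The epithelial deviations of the tumors of mouse B correlated more with the mucosa of mouse A (0.232) than with their own. Intervals and limits on zero counts cover counting error only. Gene positions are from GENCODE vM21 and promoter windows from RefSeq, which held 31 of the 42 members.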

Additional observations from a re-analysis of the deposited data

Results flagged for a closer look

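In all cells and epithelial cells, 71 sets of 10 tumors were searched for a single tumor standing apart from the others by Dixon's test, which flags about 1 set in 20 by chance, so 3.5 were expected and 9 were found. Tumor 10 stood apart in 7 of these. In all cells its Tnfrsf8 was at 2.411 CPM (others 0.677 to 1.426) and its Cd27 at 6.408 (2.454 to 3.974). In its epithelial cells Tnfrsf8 was at 3.604 (0.467 to 2.01), Tnfrsf18 at 5.517 (2.412 to 4.033), Tnfsf13b at 4.805 (1.036 to 2.802), Tnfsf13os at 23.4 (2.692 to 13.61) and Fas at 11.03 (3.567 to 7.505). The epithelial value of Tnfrsf4 in tumor 4 was 1.448 (others 0.3588 to 0.9107) and that of Ltb in tumor 6 was 8.733 (2.225 to 5.424).

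For 7 members, all tumors of 1 mouse lay above and all tumors of another mouse below their own mucosa, and these differences between mice were not tested. The values are mean log2 differences of tumors from own mucosa in mice A, B and C. In all cells they were -0.327, 0.0294 and 0.363 for Tnfrsf14, 0.299, 0.0217 and -1.0 for Cd27, -0.209, 0.138 and 0.0321 for Ltbr, 0.384, 0.563 and -1.29 for Tnfrsf13c, and 1.11, 0.636 and -0.879 for Ltb. In epithelial cells they were 0.334, 0.354 and -1.3 for Tnfsf15 and -0.22, 0.239 and 0.0419 for Tnfrsf1a. These are differences of CPM, which are not scaled for composition. In epithelial cells the scaled fold minus the log2 ratio of mean CPM had a median of -0.306 over all genes, about the size of the smaller values of Tnfsf15 and Tnfrsf1a, so the signs of these values may change with the scaling. Mice A and C gave 4 tumors each and mouse B gave 2.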

How the results depend on the processing

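Between 23 and 27 members were higher and 5 to 6 lower in all cells when each library was left out in turn, and 13 to 16 and 5 to 8 in epithelial cells. Over all genes in these fits, 5744 to 6332 were higher and 5321 to 5947 lower in all cells. In epithelial cells 4623 to 5461 genes were higher and 4077 to 4855 lower. The smaller comparisons moved more. Leaving out 1 library gave 1 to 3 higher members in B cell-like cells, 0 to 2 higher and 1 to 2 lower in plasma cell-like cells, 2 to 8 higher and 1 to 3 lower in absorptive cells and 0 to 2 higher in goblet-like cells. Genes higher ran from 648 of 5615 to 1120 of 5802 in B cell-like and 614 of 9782 to 1064 of 9545 in plasma cell-like cells. They ran from 403 of 7815 to 1071 of 8540 in absorptive and 13 of 6641 to 209 of 7326 in goblet-like cells. Genes lower numbered 672 to 1164 in plasma cell-like and 479 to 1120 in absorptive cells. Within the T cell-like cluster that held most tumor cells, chosen after seeing the data, 6 of 25 members were higher and 4 lower (8.63% and 6.36% of genes), and of the members called in T cell-like cells, the folds of Fasl, Tnfsf8 and Tnfrsf13b turned to 0.33, -0.77 and -0.11. Those of Cd40lg, Lta, Ltb and Fas, not called, also changed sign. Without the filter on low counts, 12 of 42 members were lower in T cell-like cells (13.4% of genes), and in goblet-like cells 4 of 34 were higher and 1 lower (3.0% and 2.04% of genes). That setting also moved the median log2 fold change over all genes from 0.0352 to 0.2883 in all cells, from 0.042 to 0.2265 in epithelial cells and from 0.0355 to 0.3288 in plasma cell-like cells. With mouse as a replicate block, 1 member was lower in goblet-like cells, and calls changed for the 6 members given with their blocked p and for no other member. Among pathway genes in epithelial cells, 3 rather than 9 were lower with the tumors of a mouse summed, and 5 to 9 were when 1 library was left out. The cause of these shifts was not tested. The requirement of 50 cells per library was not run for absorptive and goblet-like cells, where 4 and 3 tumors would remain. No detection limit was computed for sparse members.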
